A study of Mus musculus with 20 samples.

Results

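The hepatocytes of a liver lobule divide their work along the blood flow, which enters at the portal triad and leaves at the central vein. Wnt ligands made by the endothelium of the central vein hold β-catenin active in the neighbouring hepatocytes, and these pericentral cells make glutamine, take up glutamate and ammonium, and oxidise drugs. Periportal hepatocytes, at the other end, make urea and glucose. The 10 genes described here mark these zones: 8 pericentral genes (Glul, Cyp2e1, Cyp1a2, Oat, Slc1a2, Lgr5, Axin2 and Rhbg) and 2 periportal genes (Cyp2f2 and Cdh1) set against them. They were taken by symbol from the 45306 genes of a liver RNA-seq table, and all 10 passed the filter on low counts, as did 15616 genes in all.

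Livers came from 20 mice on the C57BL/6 background, 5 in each of 4 groups. The Control group was wild type and kept at room temperature, and the CE group was wild type and exposed to cold (4 °C for 3 h each day over 3 weeks). The Sirt2-/- group carried a CRISPR deletion of internal exons of Sirt2, a NAD-dependent deacetylase, and was kept as the Control group was. The Sirt2-/-/CE group carried the same deletion and had the cold exposure. The mice were 5 weeks old at the start, their sex is not given in the labels, and the deletion is in every cell of the body, not in hepatocytes alone. The numbers 1 to 20 name the mice: Control 1 to 5, CE 6 to 10, Sirt2-/- 11 to 15 and Sirt2-/-/CE 16 to 20.

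The libraries held 35499796 to 53917339 counts each. Hepatocyte markers summed to 75596 to 165935 CPM (counts per 1000000 counts of the library, scaled by the trimmed mean of M values, TMM), while skeletal muscle markers summed to at most 1.05 CPM and adipose markers to at most 1.01 CPM. Pancreas markers summed to at most 18.9 CPM and erythrocyte markers to at most 850.1 CPM, both highest in Sirt2-/-/CE. The pancreas sum was mostly Cela1, and only 1 of the 6 pancreas markers, Cela1, passed the filter on low counts. A list of Xist and 4 Y-linked genes summed to 71.4 to 141.7 CPM over the libraries. Xist alone of this list was too low to be tested, the pattern of male mice. Sirt2 itself averaged 42.3 ± 1.3 CPM in Control and 46.6 ± 6.08 CPM in CE, against 22 ± 5.01 CPM in Sirt2-/- and 21.6 ± 3.42 CPM in Sirt2-/-/CE (mean ± SD, n = 5), and no knockout library reached the lowest wild-type value of 40.2 CPM. Sirt2 RNA was thus lower but not absent, at a log2 fold change of -0.94 ± 0.147 (SE) in Sirt2-/- versus Control (adjusted p = 0.0145, edgeR). A score of the circadian clock (centred log2 CPM, averaged over Ciart, Dbp, Nr1d2, Per3 and Tef, less the average over Clock, Arntl and Npas2) ran from 1.33 to 3.36 in the 5 Control mice, and 4 mice of the other groups lay under -4: CE replicate 9, Sirt2-/- replicates 14 and 15 and Sirt2-/-/CE replicate 19. Control was thus the group with the narrowest and highest clock scores, and the part of time of day in the results was not tested beyond the values given beside them.

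The promoters of the genes that the results turn on are shown first, because the zonation programme is read through TCF/LEF factors, the DNA partners of β-catenin. Of the 10 genes, 7 had a promoter of 300 bases in RefSeq (GRCm38.p6), running from 250 bases before the start to 50 after it; Lgr5, Rhbg and Cdh1 had none. The TCF/LEF core was searched as CTTTGA on both strands (TCAAAG on the other) and is in 16% of the 32851 promoters of the same length. In the sequences below, written 5′ to 3′ on the gene's strand, capitals mark this core.
Cyp2e1 (chr7:140763569-140763868, plus strand): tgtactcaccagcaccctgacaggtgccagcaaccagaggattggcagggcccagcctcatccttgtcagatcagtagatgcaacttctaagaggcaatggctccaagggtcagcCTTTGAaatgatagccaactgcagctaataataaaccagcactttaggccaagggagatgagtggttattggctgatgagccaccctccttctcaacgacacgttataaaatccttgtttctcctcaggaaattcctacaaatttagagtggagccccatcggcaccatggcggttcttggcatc
Cyp1a2 (chr9:57683606-57683905, minus strand): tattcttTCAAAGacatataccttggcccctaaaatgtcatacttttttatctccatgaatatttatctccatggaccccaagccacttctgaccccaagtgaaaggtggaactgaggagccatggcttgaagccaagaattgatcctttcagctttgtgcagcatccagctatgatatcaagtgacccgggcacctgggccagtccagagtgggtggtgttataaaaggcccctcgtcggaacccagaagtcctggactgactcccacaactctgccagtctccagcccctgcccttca
Slc1a2 (chr2:102706188-102706487, plus strand): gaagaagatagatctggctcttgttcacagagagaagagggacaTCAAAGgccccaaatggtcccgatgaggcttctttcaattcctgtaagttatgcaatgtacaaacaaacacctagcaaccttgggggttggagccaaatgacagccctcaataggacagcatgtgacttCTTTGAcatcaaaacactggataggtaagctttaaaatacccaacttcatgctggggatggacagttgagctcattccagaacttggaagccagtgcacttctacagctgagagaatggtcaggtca
Axin2 (chr11:108920099-108920398, plus strand): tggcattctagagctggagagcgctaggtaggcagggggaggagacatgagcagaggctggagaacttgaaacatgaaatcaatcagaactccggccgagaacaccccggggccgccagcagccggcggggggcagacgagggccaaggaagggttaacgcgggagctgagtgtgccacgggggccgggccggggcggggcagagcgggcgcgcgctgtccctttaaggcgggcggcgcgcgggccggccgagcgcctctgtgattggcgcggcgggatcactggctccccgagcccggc
Counted from the start, the core begins at position -135 in Cyp2e1 and at -243 in Cyp1a2. Slc1a2 holds 2 cores, at -206 and -77, and the first of them extends to the longer form CTTTGAT, which as ATCAAAG on the other strand begins at -207 and which is in 3.73% of all promoters. No core lies in the windows of Axin2, Glul, Oat and Cyp2f2. Cyp2e1 and Cyp1a2 also hold the TATA box core TATAAA (13.6% of all promoters, both strands), at -31 and -29. Glul, Oat and Axin2 hold the GC box core GGGCGG instead (35.7% of all promoters, both strands), and their GC contents of 64.3%, 61.7% and 70.0% lie above the median of 52.7%. A match describes the letters in this window and names no binding site.

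The genes lie on 8 chromosomes (GRCm38, the mm10 build; GENCODE annotation), and each is protein coding. Glul is at chr1:153899944-153909723, Cyp2e1 at chr7:140763739-140774987, Cyp1a2 at chr9:57676937-57683703, Oat at chr7:132557478-132576398 and Slc1a2 at chr2:102658659-102790784. Lgr5 is at chr10:115450311-115587780, Axin2 at chr11:108920349-108950783, Rhbg at chr3:88242874-88254709, Cyp2f2 at chr7:27119909-27133660 and Cdh1 at chr8:106603351-106670246. Exons of Slc1a2, Axin2 and Cyp2f2 overlap an antisense gene over 189, 209 and 274 bases, and the sources do not say whether counting used the strand. Rhbg shares 1190 exon bases with Gm38392, which held 2 counts in all 20 libraries. Cyp2e1 shares a stretch of at most 188 bases with 76 other genes; 62 of these are in the table, and their counts came to at most 2.89% of those of Cyp2e1 for a single gene and to 20.8% summed.

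Per length, the enzymes stood far above the Wnt pathway genes. FPKM (fragments per kilobase of transcript and per 1000000 fragments) averaged 3706 for Cyp2e1 over the 20 mice, 404 for Oat, 383 for Cyp1a2, 324 for Glul and 439 for the periportal Cyp2f2. The glutamate transporter Slc1a2 averaged 30.1 FPKM, the cadherin Cdh1 7.81 and the ammonium transporter Rhbg 5.49, while Axin2 averaged 1.63 and Lgr5 0.873. Lgr5 was also the least even gene, with 9 to 411 raw counts and a 44.1-fold range of CPM over the 20 mice. The other 9 genes ranged from 1.84-fold (Cyp2f2) to 6.47-fold (Axin2).

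**Figure D1:**
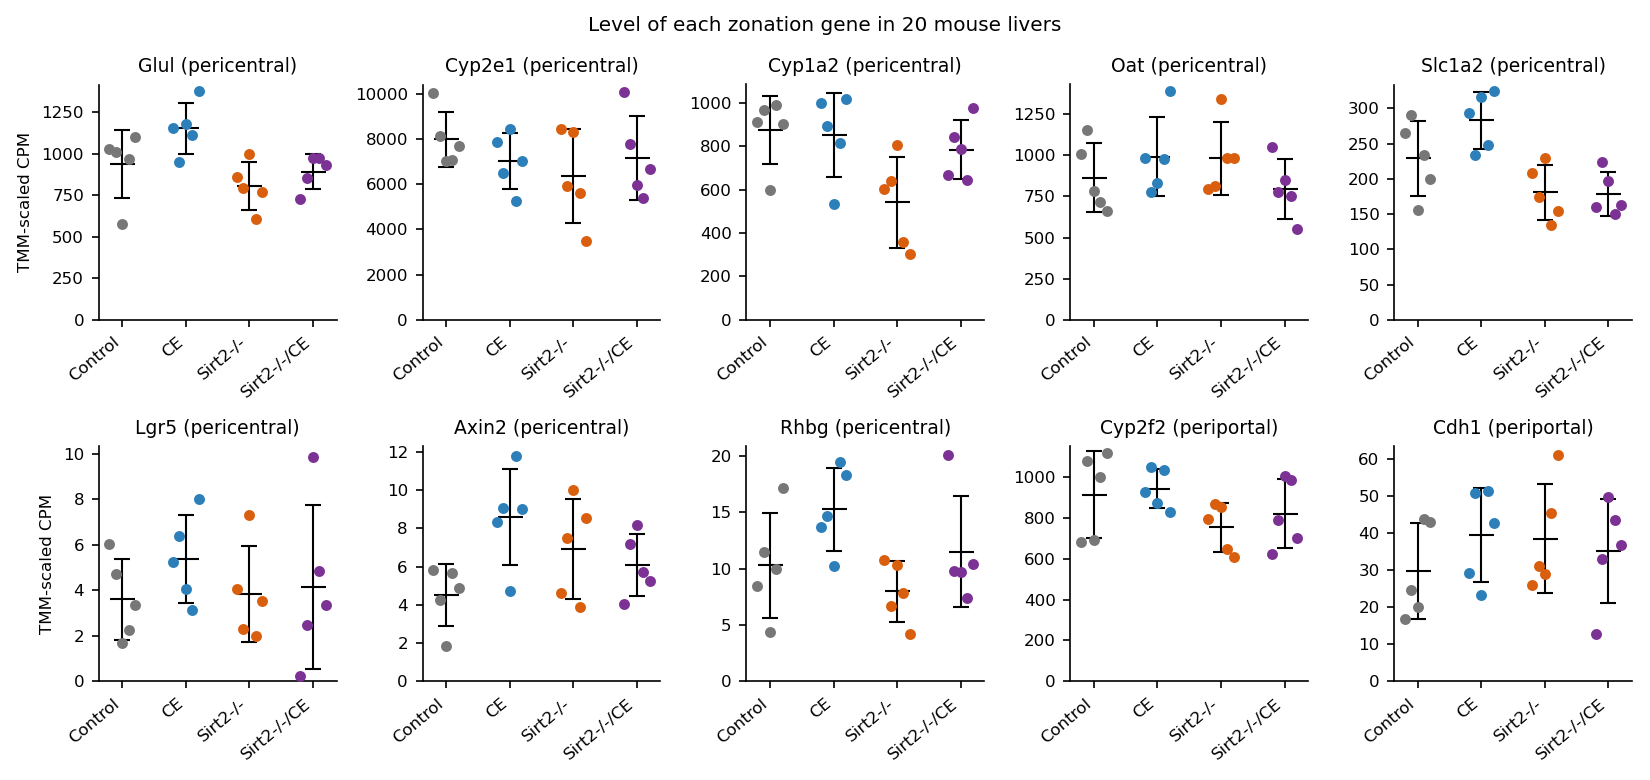
Levels of the 10 genes in TMM-scaled CPM (linear axes from 0), one panel per gene and one point per mouse, with the mean and SD (n = 5) of Control, CE, Sirt2-/- and Sirt2-/-/CE. In the 4 comparisons between 2 groups the points overlap, except that for Slc1a2 every CE mouse (234 to 324 CPM) lies above every Sirt2-/-/CE mouse (150.2 to 225 CPM).

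The first question is whether Sirt2 deletion moved these genes at room temperature. By edgeR's quasi-likelihood test, 0 of the 10 genes passed an adjusted p of 0.05 in Sirt2-/- versus Control, where 139 of all 15616 genes did (0.89%); DESeq2 and limma-voom also called 0 of the 10, beside 607 (3.89%) and 906 (5.8%) of all genes. An unadjusted p under 0.05 was reached by 1 of the 10, against 14.9% of all genes. Without Control replicate 3 and Sirt2-/-/CE replicate 16, a setting chosen after these mice were seen to stand apart in member levels, it was reached by 5 of the 10, against 13.3% of all genes, with 0 of the 10 past the adjusted threshold by edgeR. Control replicate 3 had the lowest Glul, Cyp1a2, Slc1a2 and Rhbg of its group. Leaving it out raises their Control means by construction, so these 5 and the share of all genes are not compared on equal terms. With all mice kept, 3 of the 8 pericentral genes were higher and 5 lower, with a median log2 fold change of -0.27 beside 0.02 for all genes tested. In whole liver, fewer cells of a zone and less RNA per cell cannot be told apart.

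The gene past the unadjusted threshold was Cyp1a2, the P450 that oxidises caffeine and other planar amines. The Control mice had 911, 966, 600.3, 989 and 904 CPM, and the Sirt2-/- mice had 602, 642, 804, 359 and 302 CPM. Every Sirt2-/- mouse lay below the Control mean of 874 CPM, but the groups overlapped through Control replicate 3. Its log2 fold change was -0.69 ± 0.238 (95% interval -1.19 to -0.19), with an adjusted p = 0.162 by edgeR and an exact permutation p = 0.0317 (two-sided, 0.315 adjusted over all genes). The lowest values, 359 and 302 CPM, were those of Sirt2-/- replicates 14 and 15, both with clock scores under -4. Without the 4 mice of low clock score the log2 fold change was -0.35, with an adjusted p of 0.761 by edgeR, and with the clock score as a covariate it was -0.41.

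Glul, glutamine synthetase, which is confined to the hepatocytes next to the central vein, measured 1026, 1012, 576, 970.03 and 1099 CPM in Control. In Sirt2-/- it measured 861, 790.3, 998, 605 and 766 CPM. The groups overlapped through Control replicate 3 and Sirt2-/- replicate 13, and the log2 fold change of -0.22 ± 0.168 had an adjusted p of 0.583 by edgeR. It was -0.36 (unadjusted p = 0.0223) without Control replicate 3 and -0.13 without Sirt2-/- replicate 14. Cyp2e1, the ethanol-inducible P450, measured 10015, 8103, 7004, 7057 and 7691 CPM in Control and 8438, 5928, 8284, 5623 and 3502 CPM in Sirt2-/-, where replicates 11 and 13 lay within the Control range. The log2 fold change was -0.33 ± 0.221 (adjusted p = 0.522, edgeR), and -0.18 without Sirt2-/- replicate 15; with the clock score as a covariate the sign turned (0.065). Axin2, a scaffold that dampens β-catenin and is itself a Wnt target, had the opposite sign at 0.62 ± 0.313 (adjusted p = 0.365, edgeR), and stood at 0.41 without Control replicate 3. Lgr5, the R-spondin receptor of pericentral hepatocytes, was at 0.085 ± 0.571 (adjusted p = 0.966, edgeR), and its sign turned when Sirt2-/- replicate 13 was left out (-0.28). Cyp2f2, a periportal P450, was at -0.28 ± 0.174 (adjusted p = 0.484, edgeR), close to the value of Glul. The other 4 genes, Oat, Slc1a2, Rhbg and Cdh1, lay between -0.37 and 0.38, each with an unadjusted p above 0.05.

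The second question is what cold exposure did in wild-type mice. In CE versus Control 0 of the 10 genes passed the adjusted threshold by edgeR, where 1 gene of all did (0.0064%); DESeq2 called 0 of the 10 beside 188 of all (1.2%), and limma-voom called 1, Axin2, beside 540 of all (3.46%). At an unadjusted p under 0.05 it was again 1 of the 10, against 10.7% of all genes. The pericentral genes were 6 higher and 2 lower, at a median log2 fold change of 0.30 beside -0.01 for all genes tested.

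Axin2 was that gene. Control mice had 5.84, 4.25, 1.83, 5.68 and 4.90 CPM, and CE mice had 8.35, 9.07, 4.75, 11.8 and 9.02 CPM. All CE mice lay above the Control mean of 4.50 CPM, and the groups overlapped only through CE replicate 8. The log2 fold change was 0.93 ± 0.314 (95% interval 0.28 to 1.59), or 1.91-fold, with an adjusted p = 0.277 by edgeR and an exact permutation p = 0.0317 (two-sided, 0.330 adjusted over all genes). By limma-voom it was 0.92 with an adjusted p of 0.0478, and without the 4 mice of low clock score it was 0.80 by edgeR. The cold difference in Axin2 had the opposite sign in the knockout, where Sirt2-/- mice had 4.63, 7.51, 10.03, 3.87 and 8.53 CPM and Sirt2-/-/CE mice had 4.05, 7.21, 8.20, 5.70 and 5.24 CPM. The interaction of genotype and cold was -1.12 ± 0.442 (95% interval -2.04 to -0.20), at an unadjusted p of 0.0199 and an adjusted p of 0.512 by edgeR, so the difference between the genotypes did not pass. In this interaction 0 of all genes passed (0%) and 8.34% had an unadjusted p under 0.05; DESeq2 called 41 genes, none of them among the 10.

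The other target genes of Wnt in the set did not move with Axin2 beyond their spread. Lgr5 measured 6.03, 4.70, 1.70, 2.25 and 3.36 CPM in Control and 5.24, 6.40, 4.07, 3.12 and 8.02 CPM in CE, so that the groups overlapped over most of their range (log2 fold change 0.57 ± 0.572, adjusted p = 0.798, edgeR). Glul in CE measured 1150.5, 948, 1178, 1110.2 and 1375 CPM, and 4 of these 5 values lay above every Control mouse. Its log2 fold change was 0.30 ± 0.168 (adjusted p = 0.568, edgeR), and 0.16 without Control replicate 3, the lowest Control mouse. Cyp2e1 in CE measured 7871, 6483, 8418, 5232 and 7005 CPM, within or below the Control range, at -0.19 ± 0.221 (adjusted p = 0.837, edgeR), and -0.093 without Control replicate 1. The sign of Cyp2e1 turned with the clock score as a covariate, to 0.10. Cyp2f2 was at 0.05 ± 0.173 (adjusted p = 0.967, edgeR), and without Control replicate 1 its sign turned (-0.044). The other 5 genes lay between -0.037 (Cyp1a2) and 0.57 (Rhbg), each with an unadjusted p above 0.05.

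**Figure D2:**
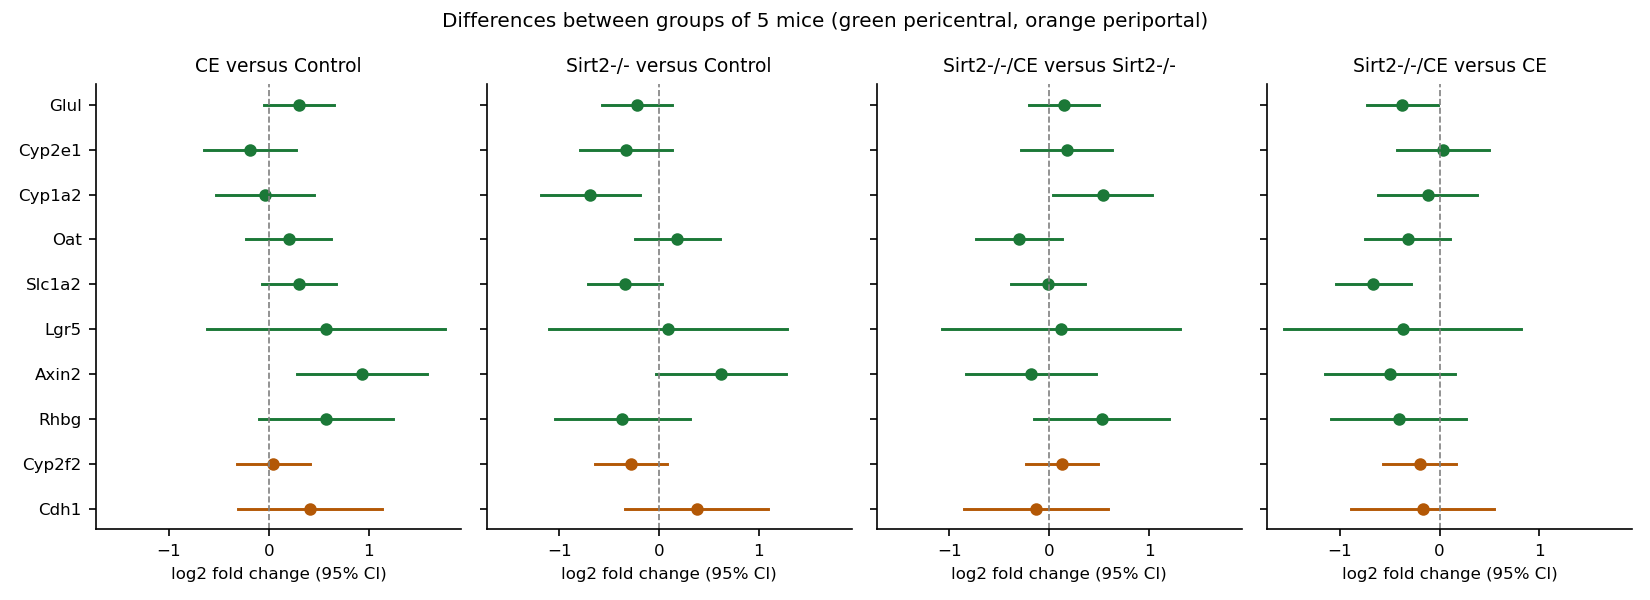
Log2 fold changes of the 10 genes with 95% intervals (edgeR) in the 4 comparisons between 2 groups, pericentral genes in green and periportal genes in orange, with a dashed line at 0. Intervals that leave 0 belong to Axin2 in CE versus Control, Cyp1a2 in Sirt2-/- versus Control and in Sirt2-/-/CE versus Sirt2-/-, and Slc1a2 and Glul in Sirt2-/-/CE versus CE, none of which passed the adjusted threshold.

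Under cold exposure the knockout and wild type were compared in Sirt2-/-/CE versus CE. By edgeR 0 of the 10 genes passed the adjusted threshold, where 2 genes of all did (0.0128%). DESeq2 called 0 of the 10 beside 31 of all (0.199%), and limma-voom called 0 beside 2 of all (0.0128%). Slc1a2 and Glul, 2 of the 10, had an unadjusted p under 0.05, against 6.09% of all genes. Of the 8 pericentral genes 7 were lower in the knockout, at a median log2 fold change of -0.37 beside 0.02 for all genes tested. Both periportal genes were lower as well, Cyp2f2 at -0.20 and Cdh1 at -0.17, so that 9 of the 10 were lower at a median of -0.34.

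Slc1a2 encodes GLT-1, a glutamate transporter that in liver is found on hepatocytes around the central vein. CE mice had 294, 234, 316, 248 and 324 CPM, and Sirt2-/-/CE mice had 160.1, 225, 197, 150.2 and 163 CPM. Every CE value lay above every Sirt2-/-/CE value. A lack of overlap in either direction was seen for 1 of the 10 genes and for 1.22% of all genes. The log2 fold change was -0.66 ± 0.179 (95% interval -1.03 to -0.29), a fold of 0.63, with an adjusted p = 0.426 by edgeR. The exact permutation p was 0.0079 (0.649 adjusted over all genes), the smallest that 252 splits of 5 against 5 allow. Groups without overlap always reach this value, so it repeats the lack of overlap and adds no further support. Leaving out any 1 mouse moved the log2 fold change only between -0.78 and -0.60, and without the 4 mice of low clock score it was -0.68.

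At room temperature the same gene measured 265, 291, 156, 234 and 200.1 CPM in Control and 209, 175, 229.8, 135 and 155 CPM in Sirt2-/-. These ranges overlap widely, at -0.34 ± 0.178 (adjusted p = 0.380, edgeR). Averaged over both treatments, the genotype difference of Slc1a2 was -0.50 ± 0.126 (95% interval -0.77 to -0.24), with an unadjusted p of 0.000731 and an adjusted p of 0.105 by edgeR. DESeq2 gave -0.51 with an adjusted p of 0.0146, and limma-voom gave -0.51 with an adjusted p of 0.0277. These tools called 317 (2.03%) and 263 (1.68%) of all genes. In that average edgeR called 0 of the 10 genes and 29 of all (0.186%), and at an unadjusted p under 0.05 it was 3 of the 10 (Slc1a2, Glul and Cyp1a2), against 13.8% of all genes. Leaving out Sirt2-/- replicate 13 brought Slc1a2 to an adjusted p of 0.0483 by edgeR, a call of 1 of the 10 where 117 of all genes (0.736%) were called. All 9 liver endothelium markers were higher in this average with an unadjusted p under 0.05, at a median of 0.80, and their part in the Slc1a2 difference was not tested.

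The size of the Slc1a2 difference depended on the unit. The ratio of counts per 1000000 to FPKM stands for the transcript length that the FPKM assumed, in kilobases, and for Slc1a2 it was 4.35 to 8.76 over the 20 mice, a 2.01-fold range. It was 8.11, 7.21, 8.70, 4.35 and 5.05 in Sirt2-/- replicates 11 to 15, and 6.56 to 8.76 in Control. For Axin2 this range was 1.23-fold and for Lgr5 1.13-fold. In FPKM, Slc1a2 averaged 29.5 ± 8.14 in Control, 36.4 ± 4.81 in CE, 29.6 ± 4.12 in Sirt2-/- and 25.0 ± 4.73 in Sirt2-/-/CE. On the log2(FPKM + 1) scale in limma the difference was 0.05 in Sirt2-/- versus Control, -0.53 in Sirt2-/-/CE versus CE (adjusted p = 0.444) and -0.24 in the average of the genotype. The lower mean under cold exposure was present in both units, and that at room temperature in counts only. The RefSeq start of the promoter shown above lies inside the GENCODE gene, which begins upstream of it.

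**Figure D3:**
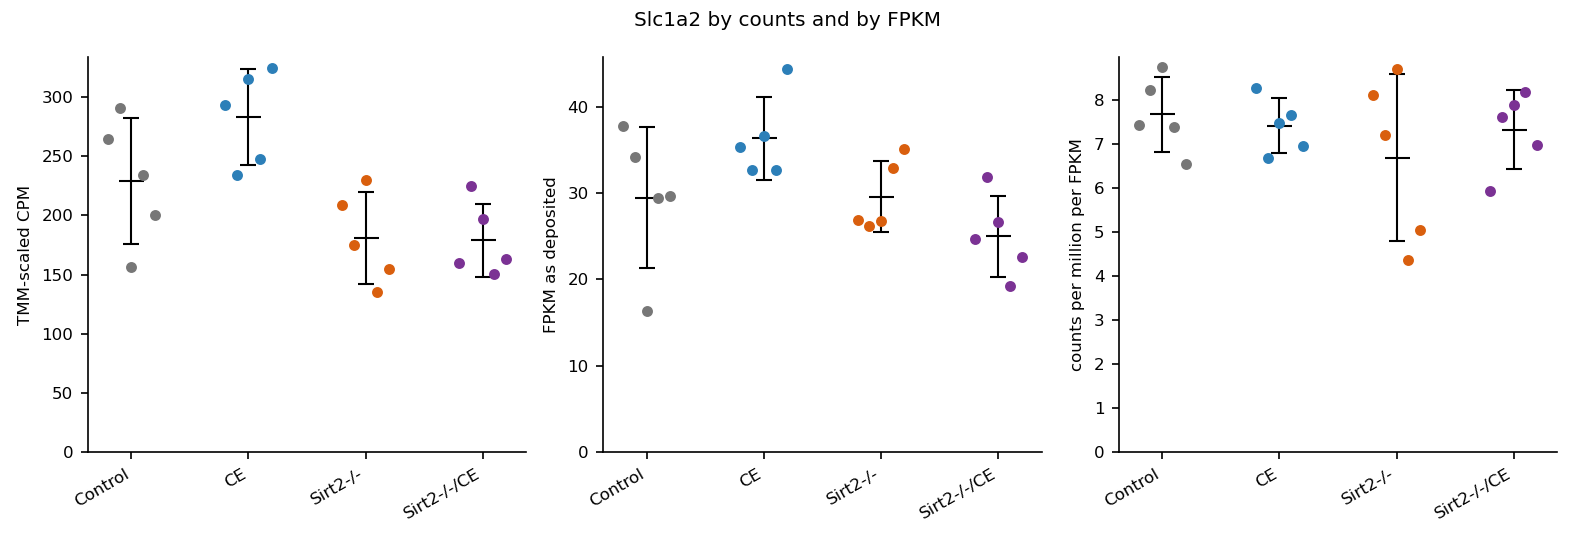
Slc1a2 by mouse in the 4 groups in CPM, in FPKM, and as the ratio of counts per 1000000 to FPKM, which is the transcript length in kilobases that the FPKM assumed, with group means and SDs (n = 5). In Sirt2-/-, replicates 14 and 15 have assumed lengths of 4.35 and 5.05 kilobases where the other 3 have 7.21 to 8.70.

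Glul was the other gene past the unadjusted threshold under cold exposure. Sirt2-/-/CE mice had 728, 849.9, 971, 974 and 933 CPM, against 948 to 1375 CPM in CE, and the ranges met at CE replicate 7. The log2 fold change was -0.37 ± 0.168, with an adjusted p of 0.776 by edgeR and an exact permutation p of 0.0238 (two-sided, 0.670 adjusted over all genes). Without CE replicate 10, the highest mouse, it was -0.30 with an unadjusted p of 0.103 by edgeR. Averaged over both treatments the genotype difference was -0.30 ± 0.119 for Glul (adjusted p = 0.278) and -0.41 ± 0.168 for Cyp1a2 (adjusted p = 0.288) by edgeR. The other 8 genes in Sirt2-/-/CE versus CE lay between -0.50 (Axin2) and 0.033 (Cyp2e1).

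Within the knockout, cold exposure was compared in Sirt2-/-/CE versus Sirt2-/-. By edgeR 0 of the 10 genes and 0 of all genes (0%) passed the adjusted threshold, DESeq2 called 0 of the 10 and 7 of all, and limma-voom called 0 of either. Only 1 of the 10 had an unadjusted p under 0.05, against 7.25% of all genes, and the groups overlapped for all 10 (no overlap in 0.743% of all genes). The gene was Cyp1a2, which in Sirt2-/-/CE measured 666, 845, 788, 644 and 978 CPM, each above the Sirt2-/- mean of 542 CPM. The log2 fold change was 0.53 ± 0.237, with an adjusted p of 0.667 by edgeR and an exact permutation p of 0.0556 (two-sided, 0.973 adjusted over all genes). Without Sirt2-/- replicate 15 the unadjusted p was 0.118 by edgeR. With cold averaged over both genotypes, 0 of the 10 and 0 of all genes (0%) passed by edgeR, DESeq2 called 0 of the 10 and 76 of all, and limma-voom 0 and 48. Rhbg alone of the 10 had an unadjusted p under 0.05 there, against 9.48% of all genes, at 0.55 ± 0.229 (adjusted p = 0.468, edgeR).

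Rhbg, which carries ammonium into pericentral hepatocytes, measured 8.43, 11.5, 4.37, 9.98 and 17.1 CPM in Control and 13.7, 14.7, 10.2, 19.4 and 18.3 CPM in CE. In the knockout it measured 10.8, 6.64, 10.4, 7.84 and 4.23 CPM without cold and 20.1, 9.81, 9.74, 7.39 and 10.4 CPM with it. The highest value of all, 20.1 CPM, was that of Sirt2-/-/CE replicate 16, and without this mouse the average cold difference was 0.40 with an unadjusted p of 0.0753 by edgeR. The same mouse had the lowest Lgr5, at 0.223 CPM or 9 counts, where its 4 group mates had 2.50 to 9.86 CPM. It also had the lowest Cdh1 (12.7 CPM) and the highest Cyp2e1 (10072 CPM) of the 20.

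The remaining members showed no order between groups beyond their spread. Oat, ornithine aminotransferase, measured 660 to 1155 CPM in Control, 777 to 1388 in CE, 794 to 1343 in Sirt2-/- and 549 to 1048 in Sirt2-/-/CE. Cyp2f2 averaged 913 ± 212, 942 ± 96.2, 753 ± 119 and 821 ± 170 CPM in the same order. Cdh1, E-cadherin, which in liver is richer in periportal hepatocytes and also marks bile duct cells, averaged 29.7 ± 12.9, 39.5 ± 12.6, 38.5 ± 14.7 and 35.2 ± 14.1 CPM (n = 5 each). Bile duct markers (8 genes, of which 6 were tested) summed to 38.5 to 77.3 CPM in Control, 37.0 to 67.3 in CE, 29.0 to 43.8 in Sirt2-/- and 23.6 to 40.1 in Sirt2-/-/CE. These sums were mostly Spp1, at a mean of 25.2 FPKM where no other listed marker was above 0.52; in Sirt2-/- versus Control Spp1 stood at -0.74 (adjusted p = 0.0888, edgeR), and 4 of the 6 tested were lower and 2 higher, at a median of -0.20. The split was 3 lower and 3 higher in Sirt2-/-/CE versus CE, at a median of -0.33. There Spp1 (-0.68, unadjusted p = 0.00421) and Sox9 (-0.76, unadjusted p = 0.0211) were lower by edgeR, and 0 were higher at an unadjusted p under 0.05. Of all genes, 6.09% had such a p, and 0 of these markers passed the adjusted threshold. The part of bile duct cells in the Cdh1 level was not tested.

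The group means of the 10 genes did not share an order. CE was the highest group for 8 genes, and Control was the highest for Cyp2e1 and Cyp1a2. Sirt2-/- was the lowest group for Glul, Cyp2e1, Cyp1a2, Rhbg and Cyp2f2. Control was the lowest for Lgr5, Axin2 and Cdh1, and Sirt2-/-/CE for Oat and Slc1a2. Of the 30 pairs of neighbours in these orders, all 30 had overlapping ranges of CPM, a share that was not counted over all genes. Neighbours are the groups nearest in mean, so this count does not speak to groups farther apart. CE and Sirt2-/-/CE, which did not overlap for Slc1a2, are not neighbours in its order.

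The ratio of pericentral to periportal genes gave a further view, since it does not depend on the scaling of a library. The log2 ratio of Glul to Cyp2f2 in FPKM was -0.54 ± 0.32 in Control, -0.29 ± 0.33 in CE, -0.49 ± 0.20 in Sirt2-/- and -0.44 ± 0.19 in Sirt2-/-/CE (mean ± SD, n = 5), so the means differed by less than the largest SD. That of Cyp2e1 to Cyp2f2 was 3.18 ± 0.47, 2.91 ± 0.38, 3.05 ± 0.37 and 3.14 ± 0.63 in the same order. That of Cyp1a2 to Cyp2f2 was -0.07 ± 0.28, -0.20 ± 0.39, -0.58 ± 0.37 and -0.08 ± 0.43, lowest in Sirt2-/-. Against Cdh1, Glul stood at 5.72 ± 0.59, 5.59 ± 0.59, 5.11 ± 0.71 and 5.46 ± 0.61, and Cyp2e1 at 9.44 ± 0.78, 8.79 ± 0.75, 8.65 ± 1.02 and 9.05 ± 1.12. Cyp1a2 against Cdh1 stood at 6.19 ± 0.57, 5.69 ± 0.43, 5.02 ± 1.09 and 5.82 ± 0.73, so that Control and Sirt2-/- lay farthest apart in this ratio. No test was run on these ratios.

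Whether the genes varied together between mice of a group was tested by correlation. Over the 20 mice, with the group mean taken out of each log2 CPM, 25 of the 28 pairs of pericentral genes had a positive correlation, as did 9 of the 16 pairs of a pericentral and a periportal gene, and 3 of all 45 pairs had an adjusted p under 0.05 (Pearson's r, permutation test of 100000 resamples, two-sided). Cyp2e1 and Cdh1 moved in opposite directions at r = -0.80 (permutation p = 1e-05, the smallest these resamples allow; adjusted p = 0.00045) and rho = -0.81 (permutation p = 5e-05, adjusted p = 0.0018). Without the 2 mice farthest from the median of Cyp2e1, r was -0.74. Glul and Lgr5 moved together at r = 0.61 (permutation p = 0.00027, adjusted p = 0.00607) and rho = 0.78 (adjusted p = 0.0018). Without the 2 mice farthest from the median of Glul, r was 0.64, but this keeps Sirt2-/-/CE replicate 16, the mouse lowest in Lgr5. Glul and Slc1a2 had r = 0.71 (permutation p = 0.00281, adjusted p = 0.0421) and rho = 0.60 (permutation p = 0.012, adjusted p = 0.135). Without the 2 mice farthest from the median of Glul r was 0.49, so that this relation rests partly on them. In FPKM, with a pseudocount of 1, Glul and Slc1a2 had r = 0.53 with an adjusted p of 0.276 by the permutation test. The values of a mouse come from 1 library, so its depth, RNA and time of day are shared by all 10 genes.

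**Figure D4:**
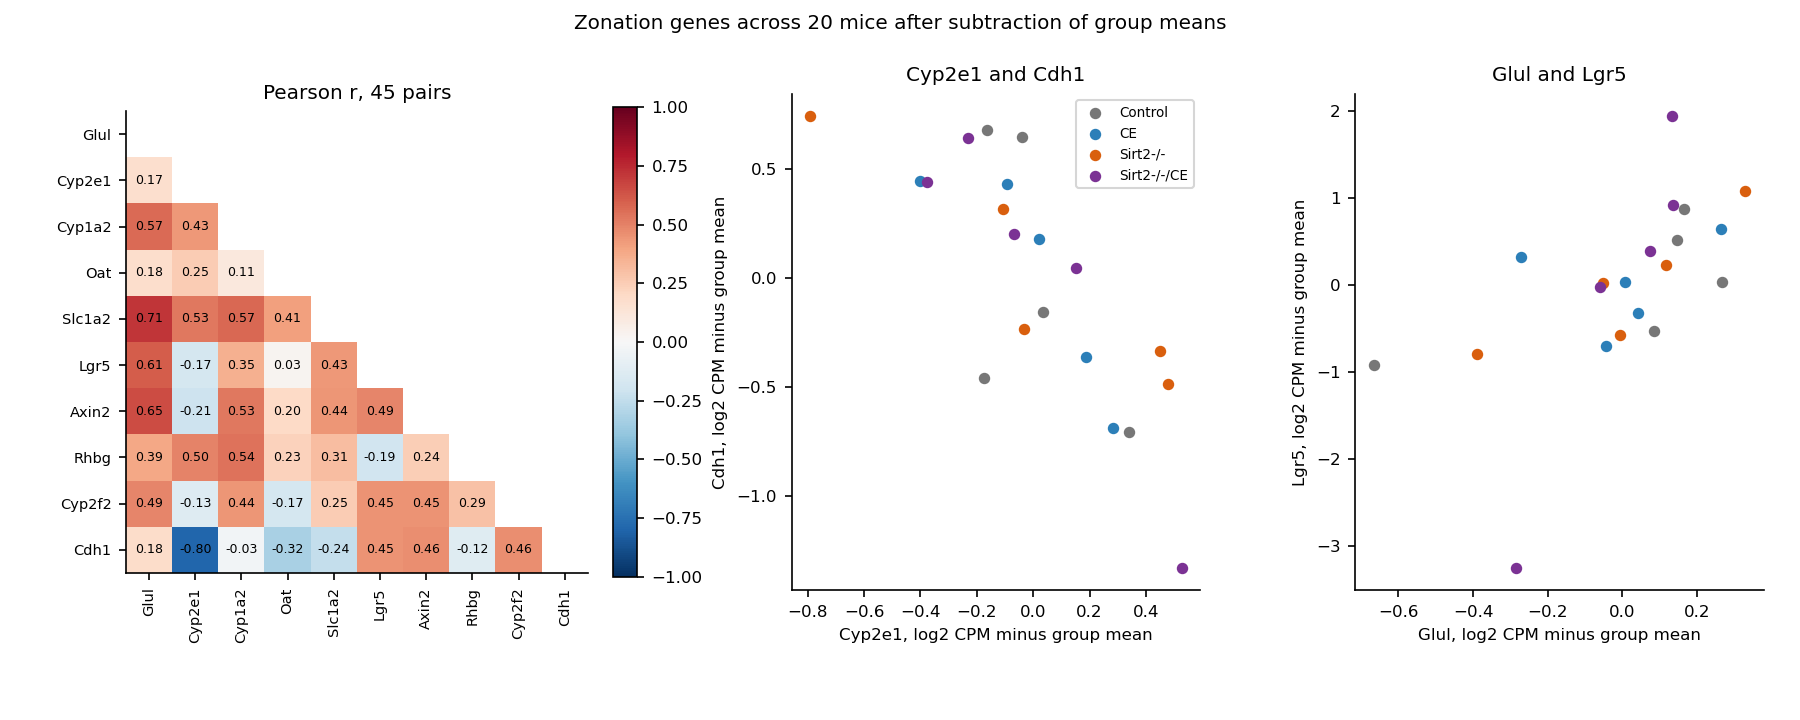
Pearson's r between the 10 genes over the 20 mice, from log2 CPM with the group means taken out, with red for positive and blue for negative values, and 2 plots of single mice (log2 CPM minus the group mean, coloured by group) for Cyp2e1 with Cdh1 and Glul with Lgr5. The block of pericentral genes is positive in 25 of its 28 pairs, and the strongest pair of all is the negative one of Cyp2e1 and Cdh1 (-0.80).

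The genes whose pattern over the 20 mice was most like a member were found by the same centred values. For Glul they were Mfsd7a (r = 0.891), Nxpe2 (0.861) and 1810034E14Rik (0.858). For Axin2 they were Fads6 (0.879), Mfhas1 (0.865) and a predicted gene without a name (0.841). For Cyp2f2 they were Mup-ps12 (0.850) and Mup-ps14 (0.849), copies of the major urinary protein family whose reads cannot be told apart with certainty, and Cyp4v3 (0.827). These are the highest of 15616 values each and carry no p.

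The rest of the Wnt pathway was read by role from lists of its genes. The ligands and their release (7 of 8 tested; Rspo1 was too low) had 0 genes past the adjusted threshold in Sirt2-/- versus Control by edgeR, and 2 at an unadjusted p under 0.05, both higher, where 14.9% of all genes had one. Those were Wnt5a (1.5 on the log2 scale, unadjusted p = 0.0145) and Wnt9b (0.82, unadjusted p = 0.0419), and Wnt2, with Wnt9b a ligand of the central vein endothelium, stood at 0.97 (unadjusted p = 0.0585). Wnt5a averaged only 0.141 FPKM over the 20 mice, and stood at -1.94 in Sirt2-/-/CE versus Sirt2-/- (unadjusted p = 0.00287, adjusted p = 0.503, edgeR) and at -0.81 in Sirt2-/-/CE versus CE. Wnt2 measured 1.64, 2.21, 1.18, 0.682 and 5.75 CPM in Control and 2.79, 4.05, 3.23, 6.25 and 6.12 CPM in Sirt2-/-, and Control replicate 5 overlapped the knockout. The summed ligands reached 11.7 to 19.9 CPM in Control, 8.29 to 16.5 in CE, 13.3 to 29.1 in Sirt2-/- and 16.9 to 24.2 in Sirt2-/-/CE. In CE versus Control 0 of the 7 had an unadjusted p under 0.05, against 10.7% of all genes; 3 were higher and 4 lower, and Wls, Rspo3 and Wnt4 had -0.63, -0.54 and -0.56. In Sirt2-/-/CE versus CE 0 passed the adjusted threshold by edgeR and 2 were higher at an unadjusted p under 0.05, against 6.09% of all genes: Wnt2 (1.51, unadjusted p = 0.00584) and Wls (0.78, unadjusted p = 0.0268).

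Liver endothelium markers (9 genes, none at 0 in every mouse) are given beside these ligands. They summed to 57.4 to 235 CPM in Control, 38.9 to 179 in CE, 102 to 281 in Sirt2-/- and 182 to 296 in Sirt2-/-/CE. All 9 were higher in Sirt2-/- versus Control (median 0.34, 0 past either threshold by edgeR) and all 9 were lower in CE versus Control (median -0.69, 2 at an unadjusted p under 0.05, against 10.7% of all genes). In Sirt2-/-/CE versus CE all 9 were higher with an unadjusted p under 0.05, where 6.09% of all genes had one, at a median of 1.20, and 0 passed the adjusted threshold by edgeR. Kupffer and leukocyte markers summed to 53.3 to 148 CPM in Control, 47.7 to 181 in CE, 98.5 to 178 in Sirt2-/- and 132 to 204 in Sirt2-/-/CE. The part of these cells in the ligand levels, and in the lower Slc1a2 and Glul of Sirt2-/-/CE, was not tested.

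Of the 8 receptors, 0 passed the adjusted threshold in either comparison with Control by edgeR, and 2 were higher at an unadjusted p under 0.05 in each, against 14.9% of all genes in Sirt2-/- and 10.7% in CE. Lrp5, a co-receptor of the Frizzled proteins, measured 41.6, 38.8, 34.5, 41.9 and 40.7 CPM in Control, against 58.4 to 100.04 CPM in Sirt2-/- and 45.5 to 97.1 CPM in CE. Neither group overlapped Control, in comparisons where 3.61% and 3.04% of all genes did not overlap. Lrp5 stood at 0.81 (adjusted p = 0.0769, edgeR) in Sirt2-/- and 0.85 (adjusted p = 0.193, edgeR) in CE, both against the same Control mice, and Fzd5 at 0.66 and 0.62. Of the 15 transducers tested, 0 passed in either comparison by edgeR. At an unadjusted p under 0.05, Tcf7l1 (0.43) was higher in Sirt2-/-, and Dvl1 and Axin1 (both 0.30) were higher in CE. Of the 8 feedback targets tested, 0 passed in either comparison by edgeR, and 1 was lower at an unadjusted p under 0.05 in each, again beside 14.9% and 10.7% of all genes. These were Lect2 in Sirt2-/- (-0.55, unadjusted p = 0.00848) and Tnfrsf19 in CE (-0.89, unadjusted p = 0.0189).

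Among 22 other pericentral genes, 1 passed the adjusted threshold in Sirt2-/- versus Control by edgeR, beside 0.89% of all genes, and it fell. Cyp2c54, a P450 of the Cyp2c family, measured 416, 439.6, 379, 317 and 339.98 CPM in Control and 279, 216, 236, 171 and 113 CPM in Sirt2-/-. These groups did not overlap, where 3.61% of all genes had no overlap in either direction. Its log2 fold change was -0.90 ± 0.211 (adjusted p = 0.0462, edgeR), and reads of the Cyp2c family may be split between near-identical copies. Gstm2 (-1.25, adjusted p = 0.0819) and Cyp2c50 (-0.60, adjusted p = 0.0888) came next by edgeR. Under cold exposure Cyp2c54 stood at 0.077 in Sirt2-/-/CE versus CE (unadjusted p = 0.716) and at 0.65 in Sirt2-/-/CE versus Sirt2-/- (unadjusted p = 0.00591, adjusted p = 0.559, edgeR). The list had 1 gene higher and 5 lower at an unadjusted p under 0.05 in Sirt2-/- versus Control (14.9% of all genes), with a median of -0.26. In Sirt2-/-/CE versus Sirt2-/- it had 6 higher and 0 lower (7.25% of all genes), with a median of 0.15 and 0 past the adjusted threshold by edgeR. In CE versus Control 0 passed by edgeR and 2 were higher at an unadjusted p under 0.05 (10.7% of all genes), Slc13a3 (0.84) and Avpr1a (1.11). Of 22 other periportal genes 0 passed in either comparison by edgeR. At an unadjusted p under 0.05, 2 were higher and 5 lower in Sirt2-/- (median -0.02; Otc -0.38, Gldc 0.94, Pigr -0.45), and 1 was higher and 1 lower in CE (Gldc 0.91, Hsd17b6 -0.87), beside the same shares of all genes.

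Of 13 genes that handle glutamate and ammonium, 1 passed in Sirt2-/- versus Control by edgeR, beside 0.89% of all genes. Slc38a3, the glutamine transporter SNAT3, measured 1974, 2046, 2951, 1597 and 1667 CPM in Control and 1219, 947, 1373, 687 and 673 CPM in Sirt2-/-, and fell by 1.06 on the log2 scale (SE 0.209, adjusted p = 0.0335, edgeR). CE mice, at 904 to 1396 CPM, also lay below every Control mouse, at -0.79 (adjusted p = 0.191, edgeR). In that comparison 3.04% of all genes had no overlap in either direction. Slc1a4, a neutral amino acid transporter, stood at 1.33 in CE (adjusted p = 0.191, edgeR) and 0.82 in Sirt2-/-. Of 10 regulators and partners of Cyp1a2 and Cyp2e1 tested, 0 passed in either comparison by edgeR. Tiparp, a target of the aryl hydrocarbon receptor as Cyp1a2 is, had the lowest p in Sirt2-/-, at -2.0 (adjusted p = 0.0729, edgeR), and stood at -1.40 in CE. Of the other targets of that receptor that were tested, Cyp1a1 stood at 0.87 (unadjusted p = 0.0578), Nqo1 at 0.25 (unadjusted p = 0.526) and Cyp1b1 at -0.23 (unadjusted p = 0.681) in Sirt2-/-. Without the 4 mice of low clock score, or with that score as a covariate, 0 of all genes passed in Sirt2-/- versus Control by edgeR, and the calls of Sirt2, Cyp2c54 and Slc38a3 were lost while their signs stayed. Without the 4 mice Sirt2 stood at -0.95, Cyp2c54 at -0.63 and Slc38a3 at -0.79, and with the covariate they stood at -0.85, -0.60 and -0.69.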

How the data were processed

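RNA was taken from the livers of 20 mice, enriched with oligo(dT) and primed with random hexamers; whether the libraries kept the strand, and which aligner and counter were used, is not given in the sources used here. The authors deposited raw counts per gene and FPKM values (fragments per kilobase of transcript and per 1000000 fragments), on the mm10 build per the labels. No column of the table was without a sample. Lines without a gene (9) were left out, and genes kept by filterByExpr (count minimum 10, total minimum 15) were scaled by TMM and tested with edgeR 4.0.16 in R 4.3.3: a quasi-likelihood fit of the 4 groups over all 20 libraries with Benjamini-Hochberg adjustment over 15616 genes. Fold changes are given with their SE and 95% interval. FPKM values were used for levels between genes and, as log2(FPKM + 1), in limma 3.58.1; such fold changes understate low genes. DESeq2 1.42.0 was an alternative, as were limma-voom with quality weights, other scalings and filters, the 2 groups alone, a clock score covariate and each mouse left out. Exact permutation tests on log2 CPM over 252 splits are printed only for members already at an unadjusted p under 0.05 by edgeR. Sequences are RefSeq promoters, and copies were found with BLAST+ 2.17.0 (at least 95% identity over 150 bases).

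The groups were taken from the labels. The 40 pairs of mice within a group differed beyond counting noise (lowest median chi-square 4.43, where noise gives 0.455), so each library counted as a sample. The test was checked on simulated counts. The members, the gene lists and the tests were chosen with earlier results of these data known, and from these no list is independent support. Genes were named by a rule: the 10 members, Sirt2, up to 3 genes per list with the lowest unadjusted p in each comparison with Control, and 3 nearest genes for Glul, Axin2 and Cyp2f2. Member fold changes were printed where the unadjusted p was under 0.05, and for Glul, Cyp2e1, Lgr5, Axin2 and Cyp2f2 in both comparisons with Control; others named singly (the levels of Wnt2, Lrp5, Oat, Rhbg and Cdh1, and Slc1a2 at room temperature) were chosen after their values were seen. With 35499796 to 53917339 counts per library, counting error was small for all but Lgr5.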

Additional observations from a re-analysis of the deposited data

Results flagged for a closer look

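Each of the 10 genes was looked at in each of the 4 groups (40 group tests by Dixon's ratio at the 95% level, of which chance flags about 1 in 20), and 3 values, from 2 mice, stood apart. In Control, replicate 3 had the lowest Glul, at 576 CPM, where the nearest mouse had 970.03 CPM. The same mouse had the lowest Cyp1a2 of its group, at 600.3 CPM, where the nearest had 904 CPM. In Sirt2-/-/CE, replicate 16 had the highest Rhbg, at 20.1 CPM, where the nearest had 10.4 CPM.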

How the results depend on the processing

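Of 442 values of 19 member fold changes, each under up to 11 other settings and with each mouse of its own groups left out, 428 kept their direction and their side of the threshold, 10 turned and 4 came to pass it. None of the 19 passed in the main fit by edgeR, so a kept side means only that a value stayed uncalled. The count does not measure how far a fold change moved. The settings that leave out the 4 mice of low clock score, or Control replicate 3 with Sirt2-/-/CE replicate 16, were chosen after seeing the data. With the clock score as a covariate, Cyp2e1 turned to 0.10 in CE versus Control and 0.0653 in Sirt2-/- versus Control. Lgr5 in Sirt2-/- versus Control turned to -0.34 by limma-voom and to -0.10 without Control replicate 3 and Sirt2-/-/CE replicate 16, and Cyp2f2 in CE versus Control to -0.0417 there. With 1 mouse left out, Lgr5 in Sirt2-/- versus Control ran from -0.28 (without Sirt2-/- replicate 13) to 0.35 (without Control replicate 1), and Cyp2f2 in CE versus Control from -0.0438 (without Control replicate 1) to 0.13 (without Control replicate 5). The number of members called became 1 where it was 0 by limma-voom in CE versus Control (Axin2), and by DESeq2 and by limma-voom in the genotype average (Slc1a2); leaving out 1 mouse gave 0 to 1 in that average. Without Control replicate 3 and Sirt2-/-/CE replicate 16, 5 members had an unadjusted p under 0.05 in Sirt2-/- versus Control, all lower (Glul -0.36, Cyp1a2 -0.81, Slc1a2 -0.46, Rhbg -0.57, Cyp2f2 -0.37), beside 13.3% of all genes in that setting, and 0 were called. Control replicate 3 was picked for its low member levels, so leaving it out pushes these differences down by construction. The count of all genes called moved more than that of the members. In Sirt2-/- versus Control (139 by edgeR) it was 607 by DESeq2, 906 by limma-voom, 419 scaled by library size only (330 higher and 89 lower, against 60 and 79), 35 without a filter (9 and 26), 209 with 10 counts in every library (104 and 105), 329 on log2(FPKM + 1) (234 and 95), 29 with the 2 groups alone (4 and 25), 0 with the clock covariate, 0 without the 4 mice, 23 without the 2 mice, and 5 to 375 with 1 mouse left out. In the genotype average (29) it was 317 by DESeq2, 263 by limma-voom, 112 by library size, 45 on log2(FPKM + 1), 2 with the clock covariate, 1 without the 4 mice, 16 without the 2 mice, and 10 to 117 with 1 left out. In CE versus Control (1) it was 188, 540 and 2 (DESeq2, limma-voom, clock covariate), 0 with the 2 groups alone, 2 and 0 without the 4 or the 2 mice, and 0 to 68. In Sirt2-/-/CE versus CE (2) it was 31 by DESeq2, 1 by library size, 0 with the 2 groups alone, and 1 to 6. In Sirt2-/-/CE versus Sirt2-/- (0) it was 7 by DESeq2, in the interaction (0) 41 by DESeq2 and 0 to 2, and in the cold average (0) 76 by DESeq2, 48 by limma-voom, 1 with 10 counts in every library, 1 with the clock covariate and 0 to 16. Scaling by library size only brought the median of all genes to 0.16 in Sirt2-/- versus Control (a rise of 0.14), 0.11 in Sirt2-/-/CE versus CE (0.093) and 0.14 in the genotype average (0.12); Cyp1a2 was then at -0.57 in the first and Slc1a2 at -0.56 in the second. The cause of these shifts was not tested. The correlation count of 3 pairs was the same on log2(FPKM + 1) and without centring, though Glul with Slc1a2 was not among the 3 in FPKM. No paired analysis was possible because the replicate numbers run on through the groups, and no 2 groups share a number. Depth limits Lgr5 most, at 9 counts in its lowest library.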
